A study of Mus musculus with 22 samples.

Results

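Cholesterol efflux and lipid storage genes were described in the spinal cord of ageing mice and of mice with motor neuron disease. The 9 genes were chosen by name for their role in sterol and lipid handling (Abca1, Abcg1, Nr1h2, Nr1h3, Soat1, Ch25h, Plin2, Fabp5 and Pparg), and all 9 were among the 21995 genes of the count table. RNA-seq was performed on whole spinal cord of 22 C57BL/6 mice, 1 library per mouse. Wild-type males at 3 to 4 months (young, n = 8) were compared with wild-type males at 18 to 24 months (old, n = 8), and these libraries were made with the Roche KAPA HyperPrep kit. Symptomatic SOD1G93A mice (n = 3) were compared with wild-type controls (n = 3), both labelled 5 to 6 months old, and these libraries were made with the Illumina TruSeq kit. SOD1G93A mice carry many copies of a mutant human SOD1 transgene, a model of amyotrophic lateral sclerosis (ALS). Each ALS group held 2 females and 1 male by the study's methods, without a sex for each library.

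Cells cannot break down the sterol ring, so surplus cholesterol either leaves the cell or is stored. ABCA1 and ABCG1 are membrane transporters that load cholesterol onto lipoprotein particles, and the liver X receptors LXRα (Nr1h3) and LXRβ (Nr1h2) are nuclear receptors that sense oxysterols and switch on both transporters. Storage runs through SOAT1, which esterifies cholesterol, and PLIN2, which coats lipid droplets. In the nervous system, phagocytes that take up myelin depend on this machinery to handle the cholesterol they ingest.

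Total counts ranged from 5078092 to 9358055 in young, 5664869 to 9145600 in old, 10693060 to 13219797 in control and 9675610 to 11872431 in SOD1G93A libraries. Levels are given as CPM, counts relative to the scaled library size, and 3 counts corresponded to between 0.231 and 0.582 CPM, a floor that covers counting error only. The reads assigned to Sod1 checked the labels: they gave 156 to 168 CPM in controls and 296 to 335 CPM in SOD1G93A mice. The libraries least like the rest of their group were d149034 among old and d4437 among SOD1G93A mice. Each had a correlation of 0.978 with the median of the other libraries of its group. The counts of members called were repeated without them. Markers of neurons (2120 to 5800 CPM summed over 5 genes) and oligodendrocytes (23100 to 29400 CPM over 5 genes) were present in every library. In whole tissue, more or fewer cells of a type cannot be told apart from more or less RNA per cell.

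Sequences upstream of the start sites are shown for Abca1 and Plin2, which had the highest log2 fold changes of the members tested in the aging comparison and were the ones with a match. LXR binds with its partner RXR to a DR4 element, 2 half-sites spaced by 4 bases (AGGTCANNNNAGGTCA), and PPARγ with RXR to a DR1 element, with a 1-base spacer (AGGTCANAGGTCA). Both were searched on both strands of the 250 bases before each RefSeq start, with at most 3 mismatches among the 12 fixed letters. The search covered 32851 windows, which held at least 1 window for 7 of the 9 genes and none for Abcg1 or Fabp5. The capitals mark the match, with Abca1 at chr4:53159896-53160145 and Plin2 at chr4:86670060-86670309, both GRCm38.p6, minus strand, written 5′ to 3′ along the gene.
Abca1 (DR4): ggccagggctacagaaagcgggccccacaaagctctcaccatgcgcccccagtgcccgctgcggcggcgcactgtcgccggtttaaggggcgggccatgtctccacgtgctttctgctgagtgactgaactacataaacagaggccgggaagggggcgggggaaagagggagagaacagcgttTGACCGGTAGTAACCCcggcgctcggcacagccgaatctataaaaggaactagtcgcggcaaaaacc
Plin2 (DR1): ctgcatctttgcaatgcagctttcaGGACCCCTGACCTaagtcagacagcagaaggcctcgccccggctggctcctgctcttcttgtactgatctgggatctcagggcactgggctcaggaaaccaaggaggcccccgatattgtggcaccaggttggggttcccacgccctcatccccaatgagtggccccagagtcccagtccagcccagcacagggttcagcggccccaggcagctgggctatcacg
Of the 7 members, a DR4 match was found in Abca1 only, 67 to 52 bases before the start, on the strand opposite to the gene and with 3 mismatches. A DR1 match was found in Plin2 only, with a match with 2 mismatches 225 to 213 bases before the start (in capitals) and another with 3 mismatches 161 to 149 bases before it. Such matches were common, with a DR4 in 18.5% and a DR1 in 21.3% of all windows. These shares count windows, while members were counted by gene, and Nr1h3 and Pparg had more than 1 window. With at most 2 mismatches, Plin2 kept its DR1 (3.24% of windows) and no member held a DR4 (2.57% of windows). These matches describe letters only, and binding was not tested.

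To ask what normal aging does to these genes, old mice were compared with young mice. Old mice had higher Abca1 (1.58-fold), Plin2 (1.67-fold), Fabp5 (1.17-fold), Soat1 (1.13-fold) and Nr1h2 (1.11-fold). The efflux transporter Abcg1 and the low-abundance receptors Nr1h3 and Pparg did not pass the test. Ch25h, too low for the fit across all genes, was at 2.22 CPM in old and 0.347 CPM in young mice. Of the 8 members tested with edgeR's quasi-likelihood test, 5 were higher at an adjusted p-value under 0.05, where 13.5% of 13647 genes were, and 0 were lower, where 12.9% of genes were. None was lower at an unadjusted p under 0.05, or by DESeq2 or limma. At a log2 fold change beyond 1 as well, 0 of 8 were higher (2.18% of genes) and 0 were lower (0.044% of genes). Every old library lay above every young library for 2 of the 8 (3.66% of genes) and below for 0 (1.66% of genes). Their median log2 fold change was 0.22, against 0.00 for all genes tested.

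To ask what motor neuron disease does to them, SOD1G93A mice were compared with controls. Ch25h (27.2-fold), Abca1 (5.5-fold) and Plin2 (5-fold) were far higher in SOD1G93A mice, and Fabp5 (1.94-fold) and Soat1 (1.79-fold) were higher by less. Abcg1, Nr1h2, Nr1h3 and Pparg did not pass the test. By edgeR, 5 of 9 members were higher at an adjusted p-value under 0.05 (18.4% of 14386 genes) and 0 were lower (15.5%). None was lower at an unadjusted p under 0.05, or by DESeq2 or limma, and 6 were higher at an unadjusted p under 0.05, the sixth being Nr1h3. With the fold threshold added, 3 of 9 were higher (8.5%) and 0 were lower (1.2%). All SOD1G93A libraries lay above all controls for 5 of 9 members (25.7% of genes) and below for 0 (24.7%). The median log2 fold change of the members was 0.84, against 0.00 for all genes.

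**Figure D1:**
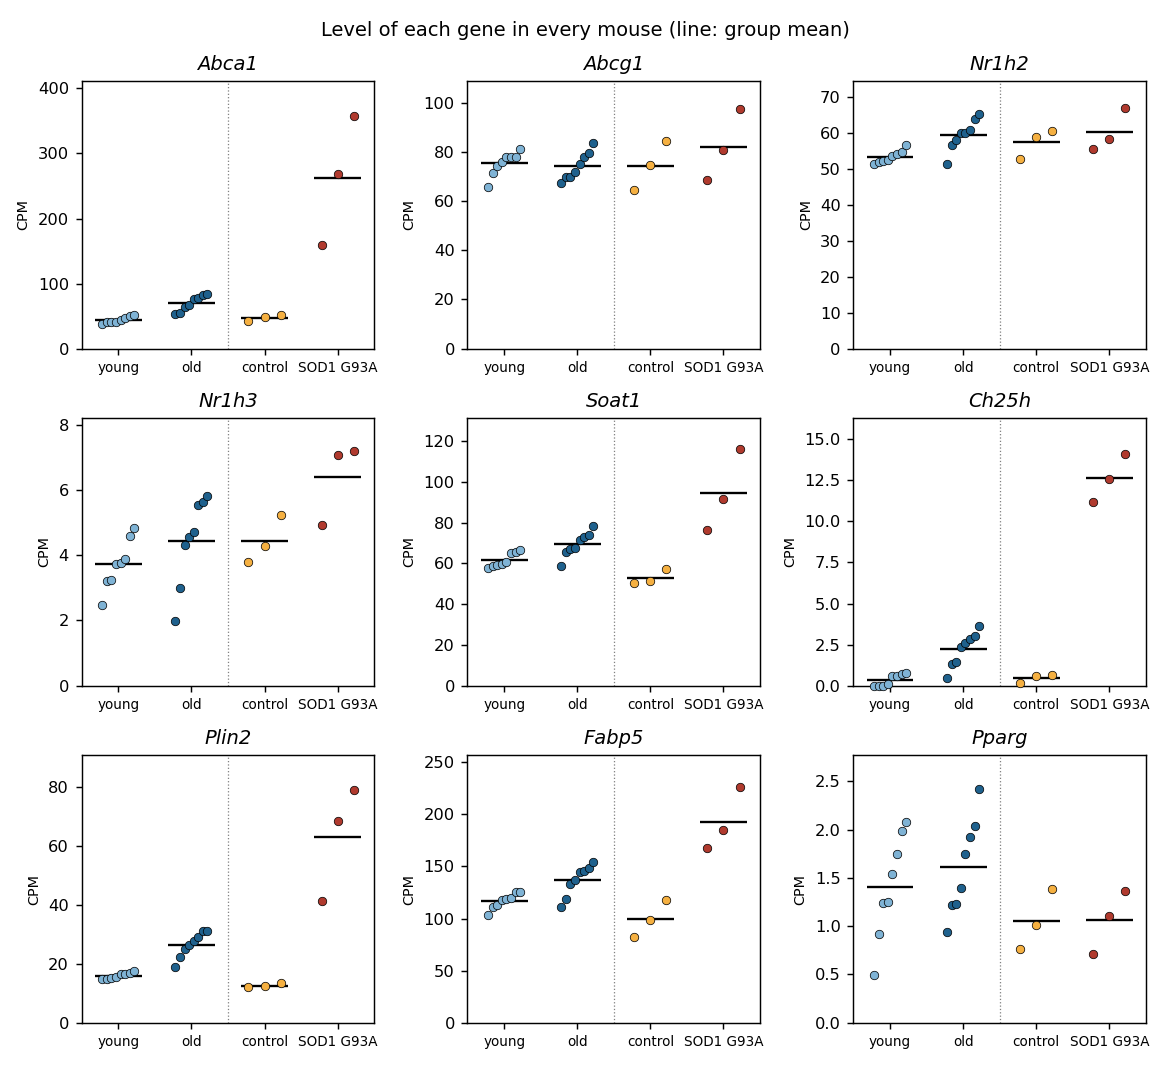
Level of each member in CPM (vertical axis, from 0) in every mouse, by group and ordered by level within it, with a line at the group mean and a dotted line between the 2 experiments. Abca1 and Plin2 separate old from young and SOD1G93A from control mice, Ch25h reaches 14.1 CPM in SOD1G93A mice and 3.62 CPM in old mice, and the Abcg1, Nr1h2, Nr1h3 and Pparg points overlap in both experiments.

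ABCA1 moves cholesterol and phospholipid to lipid-poor apolipoproteins such as APOE. Abca1 (ENSMUSG00000015243) lies at chr4:53030787-53159895 on the minus strand of GRCm38. In young mice it ranged from 37.0 to 52.0 CPM (median 42.7) and in old mice from 53.5 to 83.2 CPM (median 71.6), so that the groups did not overlap. This gave a log2 fold change of 0.66 (SE 0.0909, 95% confidence interval 0.476 to 0.852, edgeR adjusted p = 7.81e-06). The control libraries held 42.8, 48.0 and 52.2 CPM and the SOD1G93A libraries 159, 269 and 358 CPM. The lowest SOD1G93A mouse was thus above the highest control by more than the whole spread of the controls. The log2 fold change was 2.46 (SE 0.26, edgeR adjusted p = 0.000361), rank 371 of 14386 genes, and it stayed between 2.17 and 2.72 when any 1 library was left out.

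ABCG1 passes cholesterol on to particles that already carry lipid. Abcg1 (ENSMUSG00000024030) lies at chr17:31057675-31117988 on the plus strand and contains the annotated rRNA gene Gm25447 on the same strand. Young mice ranged from 65.6 to 81.3 CPM (median 77.0) and old mice from 67.3 to 83.9 CPM (median 73.5), overlapping almost throughout. With age the log2 fold change was -0.02 (SE 0.0522, interval -0.126 to 0.0904, edgeR adjusted p = 0.84). Control libraries held 64.5, 74.6 and 84.5 CPM and SOD1G93A libraries 68.5, 80.8 and 97.4 CPM, again overlapping. Here the log2 fold change was 0.14 (SE 0.143, edgeR adjusted p = 0.476), and the interval of -0.183 to 0.466 did not reach the change of Abca1.

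Of the liver X receptors, LXRβ (Nr1h2, ENSMUSG00000060601, chr7:44549616-44553951, minus strand) is the broadly expressed form. It ranged from 51.3 to 56.6 CPM in young mice (median 53.0) and from 51.2 to 65.2 CPM in old mice (median 59.9). Although 6 of 8 old libraries were above the highest young library, the lowest old library was level with the lowest young one. The log2 fold change was 0.15 (SE 0.0487, interval 0.0535 to 0.255, edgeR adjusted p = 0.0215), a change of 11.3%. On the authors' log2(FPKM + 1) values, limma gave a difference of 0.01 (adjusted p = 0.95). In the ALS experiment, Nr1h2 was at 52.8, 58.9 and 60.5 CPM in controls and at 55.5, 58.2 and 66.8 CPM in SOD1G93A mice. These groups overlapped (log2 fold change 0.07, SE 0.101, interval -0.16 to 0.296, edgeR adjusted p = 0.632).

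LXRα (Nr1h3, ENSMUSG00000002108, chr2:91184061-91202834, minus strand) is the form best known from macrophages and liver. Per transcript length it was far below Nr1h2 in every group, and its level was 2.49 to 4.85 CPM in young mice (median 3.74) and 1.99 to 5.83 CPM in old mice (median 4.63). The lowest value of all belonged to an old mouse, and the groups overlapped (log2 fold change 0.27, SE 0.195, interval -0.138 to 0.669, edgeR adjusted p = 0.338). Controls held 3.80, 4.29 and 5.23 CPM and SOD1G93A mice 4.93, 7.07 and 7.20 CPM. One SOD1G93A mouse fell within the control range, and the log2 fold change of 0.53 did not pass (SE 0.231, interval 0.00294 to 1.05, edgeR adjusted p = 0.109). That mouse was library d4437. With any 1 library left out, the log2 fold change was 0.43 to 0.68. The edgeR adjusted p ranged from 0.0297 without d4437 to 0.273 without d4435. Nr1h3 overlaps Gm13783 on its own strand and Gm23390 on the other.

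CH25H hydroxylates cholesterol to 25-hydroxycholesterol, an oxysterol that activates LXR and is made by stimulated macrophages. Ch25h (ENSMUSG00000050370) lies at chr19:34473778-34475164 on the minus strand and overlaps the long noncoding RNA gene Gm26902 on the other strand. In young mice it ranged from 0 to 0.779 CPM (median 0.348) with 3 libraries at 0, and in old mice from 0.463 to 3.62 CPM (median 2.49). In all, 7 of 8 old libraries were above the highest young library, and the exception was d149034. An exact two-sided permutation test of the difference of 1.88 CPM gave p = 0.000777, where the smallest p possible with 12870 arrangements is 0.000155. The ratio of the means was 6.41, with young levels near the floor of 3 counts. With the filter on low counts removed, edgeR gave a log2 fold change of 2.67 (adjusted p = 0.000247).

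Ch25h was the member with the largest fold change in SOD1G93A mice. Controls held 0.154, 0.569 and 0.674 CPM, which were 2, 6 and 8 counts, and SOD1G93A mice 11.2, 12.6 and 14.1 CPM. The spread within SOD1G93A mice was thus small beside the distance to the controls. The log2 fold change was 4.77 (SE 0.345, interval 3.98 to 5.55, edgeR adjusted p = 0.000101), rank 62 of 14386 genes. Leaving out 1 library at a time gave 4.31 to 5.16.

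SOAT1 (acyl-CoA:cholesterol acyltransferase) makes the cholesteryl esters that fill droplets. Soat1 (ENSMUSG00000026600) lies at chr1:156424525-156474331 on the minus strand, overlapped by Gm37648 on the other strand. It ranged from 57.7 to 66.6 CPM in young mice (median 60.3) and from 58.9 to 78.3 CPM in old mice (median 69.4). The groups overlapped, with 6 of 8 old libraries above the young range (log2 fold change 0.17, SE 0.0542, interval 0.0594 to 0.284, edgeR adjusted p = 0.0216). This call was lost without the old library d149026 (0.14, adjusted p = 0.0508), in one edgeR fit of all 22 libraries (0.17, adjusted p = 0.0768) and with limma on log2(FPKM + 1) (0.20, adjusted p = 0.361). Controls held 50.3, 51.4 and 57.1 CPM and SOD1G93A mice 76.2, 91.4 and 116 CPM, without overlap. The log2 fold change there was 0.84 (SE 0.145, interval 0.508 to 1.17, edgeR adjusted p = 0.00382).

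PLIN2 (adipophilin) coats lipid droplets in most cell types other than fat cells. Plin2 (ENSMUSG00000028494) lies at chr4:86648386-86670060 on the minus strand, and Gm12551 carries a stretch of 90.1% identity to it. It ranged from 14.9 to 17.7 CPM in young mice (median 15.9) and from 18.8 to 31.3 CPM in old mice (median 27.2), so that every old mouse was above every young mouse. Of the members tested, Plin2 had the highest log2 fold change with age, 0.74 (SE 0.0898, interval 0.556 to 0.928, edgeR adjusted p = 1.45e-06). Controls held 12, 12.5 and 13.4 CPM and SOD1G93A mice 41.4, 68.4 and 79.2 CPM. The controls were tightly grouped and the SOD1G93A mice were not, and their ranges were far apart (log2 fold change 2.32, SE 0.222, interval 1.82 to 2.82, edgeR adjusted p = 0.000249).

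FABP5 is a cytosolic fatty-acid chaperone. Fabp5 (ENSMUSG00000027533) lies at chr3:10012548-10016607 on the plus strand, and 5 other annotated genes, none of them in the count table, carry stretches of up to 98.3% identity to it, so its counts are uncertain. Young mice ranged from 103 to 125 CPM (median 119) and old mice from 111 to 154 CPM (median 141), with overlap (log2 fold change 0.22, SE 0.0606, interval 0.0995 to 0.35, edgeR adjusted p = 0.00788). With limma on log2(FPKM + 1) the difference was 0.21 (adjusted p = 0.0673). Controls held 82.3, 98.5 and 118 CPM and SOD1G93A mice 168, 185 and 226 CPM. All SOD1G93A mice were above all controls (log2 fold change 0.96, SE 0.153, interval 0.611 to 1.3, edgeR adjusted p = 0.00266).

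PPARγ is the nuclear receptor that drives fat-cell differentiation and lipid uptake in macrophages. Pparg (ENSMUSG00000000440) lies at chr6:115360951-115490399 on the plus strand and overlaps the antisense gene Gm44079. It was scarce, at 0.494 to 2.08 CPM in young mice (median 1.39) and 0.939 to 2.42 CPM in old mice (median 1.57), and the groups overlapped. Its log2 fold change was 0.22 (SE 0.261, interval -0.325 to 0.757, edgeR adjusted p = 0.585). Controls held 0.759, 1.01 and 1.38 CPM and SOD1G93A mice 0.716, 1.11 and 1.36 CPM. The groups overlapped (log2 fold change -0.000733, SE 0.373, edgeR adjusted p = 0.999), and the interval of the log2 fold change, -0.846 to 0.845, leaves room for changes of the size seen for Soat1.

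**Figure D2:**
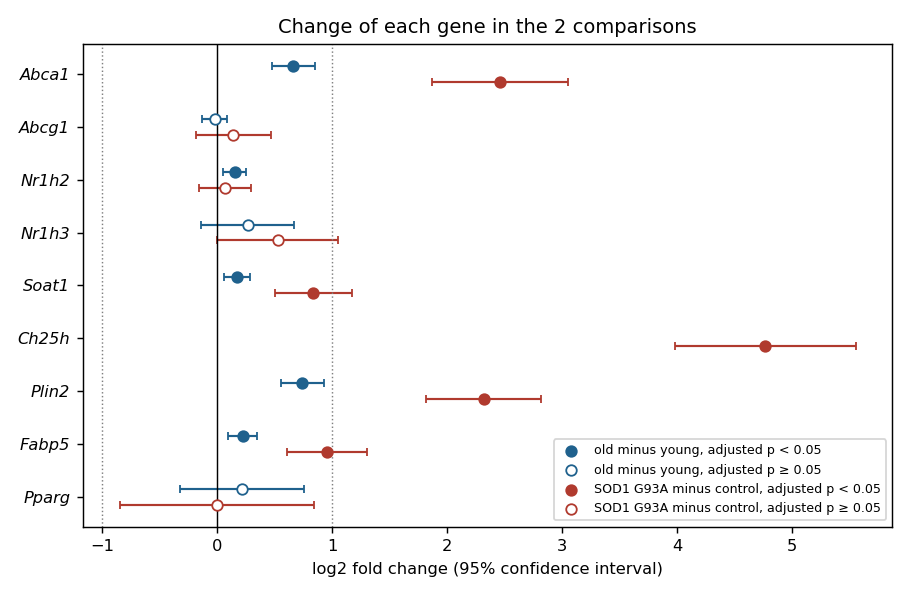
Log2 fold change (horizontal axis) of each member in old against young (blue) and SOD1G93A against control mice (red), with 95% confidence intervals. Filled points passed an edgeR adjusted p of 0.05, dotted lines mark log2 fold changes of -1 and 1, and Ch25h has no blue point because it was not in the aging fit; Abca1, Soat1, Plin2 and Fabp5 are filled in both colours, with the red point to the right.

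To compare the experiments, the difference between the 2 log2 fold changes was tested in one edgeR fit of all 22 libraries and 14502 genes. The SOD1G93A change exceeded the age change for Abca1 by 1.77 (SE 0.23, adjusted p = 1.11e-05), for Plin2 by 1.55 (SE 0.207, adjusted p = 1.38e-05), for Fabp5 by 0.71 (SE 0.142, adjusted p = 0.000683) and for Soat1 by 0.64 (SE 0.129, adjusted p = 0.000694). These were 4 of 9 members, where 11.6% of genes had a larger change in SOD1G93A mice, and 0 of 9 had a smaller one, where 14.2% of genes did. For Ch25h the difference was 2.03 with an interval of 0.307 to 3.75 (edgeR adjusted p = 0.0759). The difference could not be told from 0 for Abcg1 (interval -0.127 to 0.39), Nr1h2 (-0.313 to 0.0857), Nr1h3 (-0.445 to 0.912) and Pparg (-1.28 to 0.795). Library kit, age and sex differed between the experiments as well and cannot be told apart from it.

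Levels of different genes were compared only per transcript length, on the authors' FPKM scale. Fabp5 was highest in every group, from 92.8 ± 16 FPKM in controls (SD, n = 3) to 184 ± 29.1 FPKM in SOD1G93A mice (SD, n = 3). Nr1h2 was next in young (44.1 ± 6.15), old (44.6 ± 6.74) and control mice (35.7 ± 3.61). At the other end of the order were Nr1h3, Pparg and Ch25h, with Ch25h at 0.24 ± 0.24 FPKM in young mice (SD, n = 8).

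In SOD1G93A mice Plin2, at 42.7 ± 13.6 FPKM, stood beside Nr1h2 (40 ± 2.04), and Abca1, at 25.3 ± 9.69, beside Abcg1 (22.1 ± 3.57), and the values of both pairs overlapped. In controls the same pairs were apart, with Plin2 at 10.5 ± 0.389 FPKM, Abca1 at 5.41 ± 1.08 FPKM and Abcg1 at 19.4 ± 2.64 FPKM. Among old mice, neighbours overlapped for Plin2 (19.6 ± 4.05) and Abcg1 (19.6 ± 2.02), for Abcg1 and Soat1 (12.3 ± 2.8), and from Abca1 (7 ± 1.55) down through Nr1h3 and Ch25h to Pparg. Among young mice they overlapped for Plin2 (11.9 ± 2.48) and Soat1 (10.6 ± 2.56), and for Pparg and Ch25h. In controls no neighbours in the order overlapped.

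**Figure D3:**
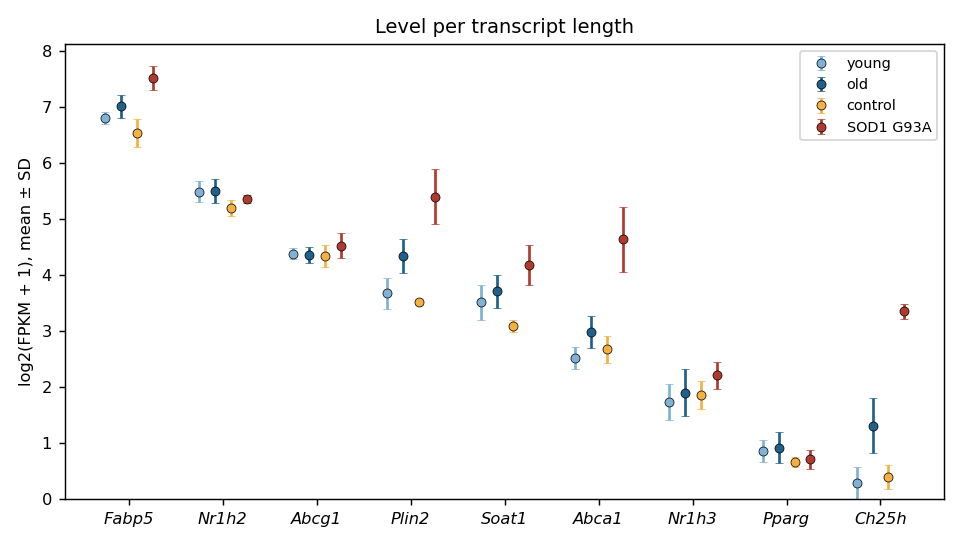
Mean log2(FPKM + 1) of each member (vertical axis) in the 4 groups, with bars of 1 SD over mice and genes ordered by their level in young mice. Fabp5 is highest in all groups, and Plin2, Abca1 and Ch25h rise in the order in SOD1G93A mice.

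Most markers of microglia and astrocytes were higher in old and in SOD1G93A mice. In old mice 8 of 9 microglial markers were higher by edgeR adjusted p, P2ry12 being the exception, and their summed level ranged from 477 to 760 CPM against 303 to 346 CPM in young mice. In SOD1G93A mice 7 of 9 were higher, P2ry12 and Tmem119 being the exceptions, with sums of 1130 to 1820 CPM against 312 to 377 CPM in controls. The astrocyte list (5 genes, Gfap the defining one) summed to 3340 to 4560 CPM in old and 2920 to 3510 CPM in young mice. It summed to 8240 to 14300 CPM in SOD1G93A and 2600 to 3360 CPM in control mice. With age 3 of 5 genes were higher and 1 lower, and 5 of 5 were higher in SOD1G93A mice. Gfap went from 1840 CPM in young to 2980 CPM in old mice, and Gja1 fell from 415 to 354 CPM. In SOD1G93A mice 3 of 5 neuronal markers were lower, with sums of 2120 to 3740 CPM against 5510 to 5800 CPM in controls.

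Library by library, d4437 had the lowest microglial sum of the SOD1G93A mice, d4443 the middle one and d4435 the highest. Astrocyte sums had the same order (8240, 13000 and 14300 CPM), as did Schwann-cell and fibroblast sums. Neuronal sums had the reverse order (3740, 2460 and 2120 CPM). Abca1, Abcg1, Nr1h3, Soat1, Ch25h and Plin2 followed the microglial order, and Nr1h2, Fabp5 and Pparg did not. Among old mice, d149034 had the lowest microglial and astrocyte sums, the highest neuronal sum, and the lowest Soat1, Ch25h, Plin2 and Fabp5. Its Nr1h2 was the highest of the old mice (65.2 CPM), and its Abca1, Abcg1, Nr1h3 and Pparg were not the lowest. The part of these cell markers in the results was not tested. Without d149034, 6 members were higher with age, Ch25h then being in the fit, and without d4437, 6 were higher in SOD1G93A mice. Of 5 fat-cell markers, Lep was at 0 in every library, and Adipoq, the defining one, was at 0.0306 CPM on average in young and 0.0182 CPM in old mice. Only Car3 was high enough to test, and it fell with age from 2.66 to 1.26 CPM (log2 fold change -1.08, edgeR adjusted p = 0.00366) and was at 3.53 CPM in controls and 2.13 CPM in SOD1G93A mice (edgeR adjusted p = 0.125). Schwann-cell markers (4 genes) summed to 116 CPM in d4435, the SOD1G93A library with the highest Abca1, Soat1, Ch25h and Plin2, against 6.75 and 11.4 CPM in the other SOD1G93A libraries and 3.11 to 3.99 CPM in controls. Fibroblast and meningeal markers (5 genes) summed to 121 CPM in that library, against 66.1 and 81.8 CPM in the others and 57.5 to 66.7 CPM in controls. Without d4435, 5 members were still higher by edgeR adjusted p, with log2 fold changes of 2.17 for Abca1, 2.13 for Plin2, 4.69 for Ch25h, 0.67 for Soat1 and 0.99 for Fabp5. The old library d149032 had Schwann-cell markers at 60.4 CPM, against 2.16 to 6.53 CPM in the other old mice and 2.40 to 12.1 CPM in young mice, and without it 5 members were higher with age. Border macrophage markers summed to 1.36 to 4.02 CPM in young, 1.61 to 3.65 CPM in old and 1.61 to 2.85 CPM in control mice, against 3.83 to 5.42 CPM in SOD1G93A mice. Of these 5 scarce genes, 2 were high enough to test in the ALS comparison, with 1 higher by edgeR adjusted p, and 0 with age.

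The other genes of lipid handling were taken as 73 genes in 6 lists, of which 61 were tested in the aging comparison and 64 in the ALS comparison. In old mice 12 of 61 were higher by edgeR adjusted p (13.5% of all genes tested) and 11 lower (12.9%). Past both thresholds, 2 were higher (2.18%) and 0 lower (0.044%), with a median log2 fold change of 0.03. In SOD1G93A mice 20 of 64 were higher (18.4% of all genes tested) and 10 lower (15.5%). Past both thresholds, 13 were higher (8.5%) and 1 lower (1.2%), with a median of 0.05. The shares over all genes tested are also the ones to set beside the counts of each list below. The medians over all genes were 0.00 in both.

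Among efflux and lipoprotein genes, 6 of 14 were higher and 1 lower with age (median 0.15), and 9 of 15 were higher and 3 lower in SOD1G93A mice (median 0.83). Apoe, the main apolipoprotein of the nervous system and the acceptor of cholesterol from ABCA1, rose from 1180 ± 61.8 to 2440 ± 350 CPM with age (SD, n = 8; log2 fold change 1.05, SE 0.071, edgeR adjusted p = 1.49e-10). It rose from 1040 ± 94.6 to 7270 ± 3330 CPM in SOD1G93A mice (SD, n = 3; 2.80, SE 0.311, edgeR adjusted p = 0.000466). Lipoprotein lipase (Lpl) rose from 4.93 to 18.8 CPM with age (1.93, edgeR adjusted p = 4.68e-07) and from 9.76 to 199 CPM in SOD1G93A mice (4.36, edgeR adjusted p = 8.14e-05). Clusterin (Clu) rose from 661 to 2230 CPM in SOD1G93A mice (1.76, edgeR adjusted p = 0.000516) and from 675 to 967 CPM with age (0.518, edgeR adjusted p = 2.32e-08). Apoc2, with at most 1 count in a control library, was at 0.0316 CPM in controls and 2.13 CPM in SOD1G93A mice (edgeR adjusted p = 0.000795). Of transporters that fell, Abca2 was lower in old mice (log2 fold change -0.18, edgeR adjusted p = 0.00205) and Abcg4 in SOD1G93A mice (-0.52, edgeR adjusted p = 0.0088).

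Uptake and lysosomal release genes were split in old mice, with 3 of 10 higher and 3 lower (median -0.06), and in SOD1G93A mice 6 of 12 were higher and 1 lower (median 0.31). Mylip, a ubiquitin ligase, rose in SOD1G93A mice from 9.82 to 29.5 CPM (1.59, edgeR adjusted p = 0.00102). Npc2, which takes part in the release of cholesterol from lysosomes, rose there from 118 to 273 CPM (1.21, edgeR adjusted p = 0.00168). Both were also higher with age, Mylip by 0.51 (edgeR adjusted p = 9.93e-05) and Npc2 by 0.395 (edgeR adjusted p = 5.4e-05). The scavenger receptors Msr1 (0.112 to 8.02 CPM, edgeR adjusted p = 0.000361) and Cd36 (0.246 to 2.43 CPM, edgeR adjusted p = 0.0059) rose in SOD1G93A mice from levels near the floor.

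**Figure D4:**
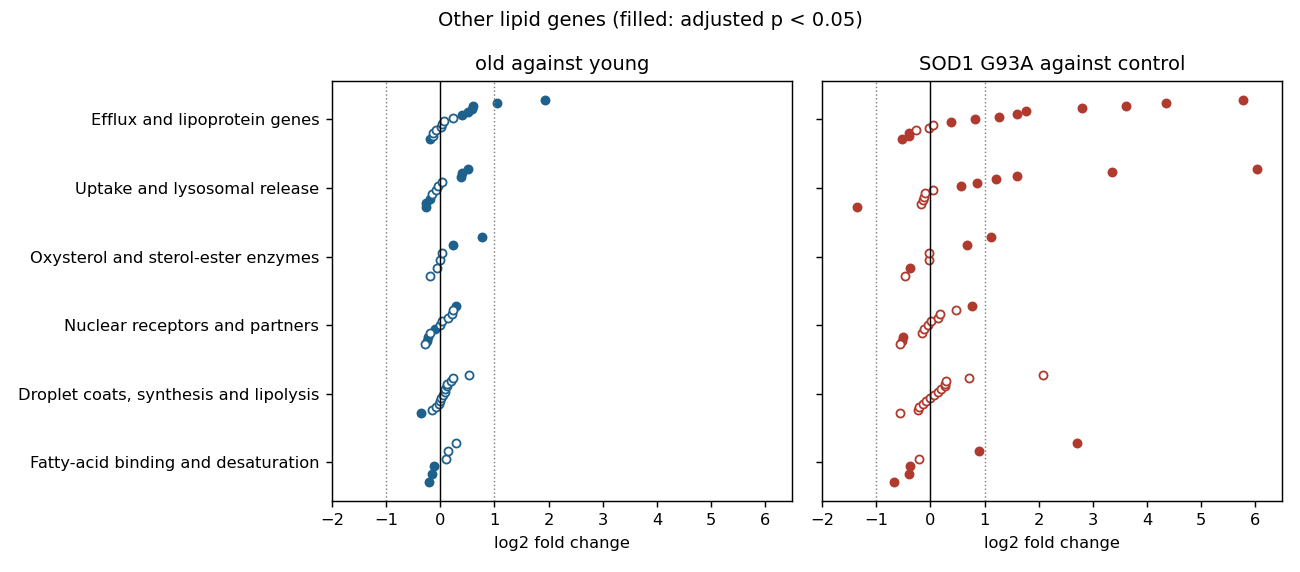
Log2 fold change (horizontal axis) of each tested gene of the 6 lists of other lipid genes, for old against young (left) and SOD1G93A against control (right), filled where the edgeR adjusted p was under 0.05, with dotted lines at -1 and 1. The spread is widest in the efflux and uptake lists of SOD1G93A mice, and no gene of the droplet list is filled there.

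Oxysterol and sterol-ester enzymes had 2 of 6 higher in old mice and 2 of 6 higher with 1 lower in SOD1G93A mice, where Hsd3b7, of bile-acid synthesis, rose from 9.62 to 20.9 CPM (1.13, edgeR adjusted p = 0.0101) and Cyp46a1, the neuronal 24-hydroxylase, fell (-0.37, edgeR adjusted p = 0.0286). Hsd3b7 was also higher with age (0.777, edgeR adjusted p = 0.00749). Nuclear receptors and partners had 1 of 11 higher and 3 lower with age, and 1 of 11 higher and 2 lower in SOD1G93A mice. The one that rose was Srebf1, a regulator of fatty-acid synthesis, named after its values were seen (0.29, edgeR adjusted p = 0.00224 with age, and 0.77, edgeR adjusted p = 0.00239 in SOD1G93A mice). The corepressor Ncor1 fell with age (-0.24, edgeR adjusted p = 0.00691), and Srebf2, the regulator of cholesterol synthesis, fell in SOD1G93A mice (-0.52, edgeR adjusted p = 0.0178).

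Droplet coat, synthesis and lipolysis genes other than Plin2 had 1 of 14 lower in old mice by edgeR, DESeq2 and limma alike, which by edgeR was the lipase cofactor Abhd5 (-0.36, adjusted p = 0.000329), and none was higher. In SOD1G93A mice 0 of 14 were called by edgeR or DESeq2 and 1 was higher by limma, while 2 were higher and 2 lower at an unadjusted edgeR p under 0.05. Fatty-acid binding and desaturation genes other than Fabp5 had 3 of 6 lower in old mice, and 2 of 6 higher with 3 lower in SOD1G93A mice. There Fabp7, of astrocytes and radial glia, rose from 14.4 to 92.6 CPM (2.70, SE 0.317, edgeR adjusted p = 0.000614). The desaturase Scd1 fell in both, from 932 to 803 CPM with age (-0.22, edgeR adjusted p = 0.00133) and from 751 to 473 CPM in SOD1G93A mice (-0.67, edgeR adjusted p = 0.00392).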

How the data were processed

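The authors aligned the reads to the mm10 mouse genome, summarized them with RSEM (SAMtools 1.3 in the submitters' processing notes), and deposited expected counts per gene, given as whole numbers without normalization between libraries. The authors also deposited log2 values, log2(FPKM + 1), in which 304 values were above 0 where the count was 0. Columns name a group and a library, not a replicate number. The libraries of a group differed by more than sampling noise (chi-square per degree of freedom at least 2.57), and whether mice were littermates was not given, so p-values measure the spread between these mice. Whether counting used strand is not given in the sources used here.

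The counts were tested in R 4.3.3 with edgeR 4.0.16 (filterByExpr with a minimum count of 10 and total of 15, TMM scaling, quasi-likelihood test, Benjamini-Hochberg adjustment over all genes), separately for each comparison. DESeq2 1.42.0 and limma 3.58.1 (pseudocount 1) were alternatives. Thresholds were a log2 fold change beyond 1 and an adjusted p under 0.05. Simulated counts with known changes were used to test the edgeR step. The members, lists and tests were chosen with earlier results of these data known. All 9 members were named, with, from each list, up to 4 genes past both thresholds with the smallest adjusted p, and the lowest-p gene that fell, except 1 gene that is not reported here. Symbols and positions are from GENCODE M21, and near copies were searched with BLAST 2.17.0 (at least 300 bases at 90% identity). Figures used Python 3.11.15 and matplotlib 3.10.9.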

Additional observations from a re-analysis of the deposited data

Results flagged for a closer look

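The change in SOD1G93A mice differed from the change with age, tested as an interaction across the 22 libraries with edgeR, for 4 of the 9 members. The difference of the log2 fold changes, SOD1G93A change minus age change, was 1.77 for Abca1 (adjusted p = 1.11e-05), 1.55 for Plin2 (adjusted p = 1.38e-05), 0.706 for Fabp5 (adjusted p = 0.000683) and 0.638 for Soat1 (adjusted p = 0.000694). All 3 SOD1G93A libraries were above all controls for each of these genes. Leaving out each ALS library in turn, the difference stayed between 1.48 and 2.02 for Abca1, 1.36 and 1.77 for Plin2, 0.58 and 0.84 for Fabp5, and 0.47 and 0.76 for Soat1. The experiments also differed in library kit, sex and age, which cannot be told apart from the difference between ageing and ALS. A single library far from the others was looked for in the young and the old mice, for each of the 9 members (18 tests), and 0 were found. The control and SOD1G93A groups, with 3 mice each, are too small for this test and were not covered.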

How the results depend on the processing

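Abca1 and Plin2 kept their direction and call in both comparisons under every alternative run, as did Soat1 and Fabp5 in SOD1G93A mice. Ch25h kept its direction and call in SOD1G93A mice under every alternative in which it was tested. Of the alternative values for single members, 349 stayed on the same side of the threshold with the same sign, 7 turned sign, 5 lost a call and 2 gained one. The causes were not tested, except that Ch25h entered the aging count wherever it was included in the fit. No paired analysis was possible because the columns carry no replicate numbers.

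Members higher past both thresholds in old mice numbered 0, but 1 with DESeq2, with no filter on low counts and in one fit of all libraries, 5 with no fold threshold, and 0 to 1 with a library left out (1 without young d159033, young d149019 or old d149034). By adjusted p alone there were 5, but 2 with limma on log2(FPKM + 1), and 4 to 6 with a library left out. In SOD1G93A mice 3 passed both thresholds, 5 with no fold threshold and 3 to 4 with a library left out. By adjusted p alone 5 to 6 passed with a library left out. Ch25h was among the 3 and the 5, and was not tested where at least 10 counts were required in every library. Other lipid genes higher past both thresholds in old mice numbered 2, but 6 with DESeq2, 6 with no filter, 4 in one fit and 12 with no fold threshold. Those lower past both numbered 0, and 11 with no fold threshold. By adjusted p alone 11 were lower, but 7 in one fit and 3 with limma. In SOD1G93A mice 13 other lipid genes were higher past both thresholds (20 with no fold threshold, 11 to 19 with a library left out) and 1 lower (10, and 0 to 1). By adjusted p alone, 16 to 27 were higher with a library left out, and 10 were lower, with 5 by limma and 4 to 13 with a library left out (4 without d4443, 13 without d4437). Of members with a DR4 there were 0 at 2 mismatches and 7 at 4, and of members with a DR1 there were 5 at 4.

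Values whose sign turned, none of them called, were Abcg1 with age (0.00063 without old d149036; -0.04731 to 0.00063 with each library left out), Nr1h2 in SOD1G93A mice (-0.009371 without d4443; -0.009371 to 0.1258) and Pparg in SOD1G93A mice (0.04535 by limma, 0.2224 without d4443; -0.2228 to 0.2506). The differences between comparisons turned for Pparg (0.01255 without control d4444; -0.4607 to 0.01255) and for Abcg1 (-0.001117 without d4435; -0.001117 to 0.234). For Ch25h that difference was 2.04 by DESeq2 (adjusted p = 0.0288).

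Low counts limited Ch25h and Pparg most, with 3 young libraries at 0 counts for Ch25h and a lowest count of 4 for Pparg.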

Other observations

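Some further lipid genes were chosen after their values were seen. Apoc1, an apolipoprotein gene beside Apoe, was at 1.1 ± 0.0324 CPM in controls and 13.6 ± 8.71 CPM in SOD1G93A mice (SD, n = 3; edgeR adjusted p = 0.0018). It was at 2.20 and 2.61 CPM in young and old mice (edgeR adjusted p = 0.524). Lpcat3, which remodels membrane phospholipids, was at 16.3 CPM in controls and 30.2 CPM in SOD1G93A mice (edgeR adjusted p = 0.00905). With age it was at 20.3 and 22.7 CPM (edgeR adjusted p = 0.143). Pltp, the phospholipid transfer protein, was higher with age (75.9 and 100 CPM, edgeR adjusted p = 0.000356), and was at 80.4 CPM in controls and 82.7 CPM in SOD1G93A mice (edgeR adjusted p = 0.815). Whether these changes differ between the comparisons was not tested for these 3 genes.

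Among the other perilipins, Plin3 was at 65.3 and 63.5 CPM in young and old mice and at 74.6 and 78.5 CPM in controls and SOD1G93A mice, with edgeR adjusted p of 0.795 and 0.707. Plin4 varied more within groups than Plin2, from 5.50 to 106 CPM in controls and from 30.3 to 426 CPM in SOD1G93A mice (edgeR adjusted p = 0.135). Plin1, the perilipin of fat cells, held at most 3 counts in any library.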
